A study of Mus musculus with 14 samples.

Results

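The NRF2 antioxidant response was followed through 10 genes, Nfe2l2, Slc7a11, Gclc, Gclm, Gsr, Txnrd1, Srxn1, Prdx1, Hmox1 and Nqo1. They were taken by symbol from a table of 43432 mouse genes, each had 1 row, and all 10 were among the 17390 tested genes, those that reached 10 normalized counts in 2 or more libraries. A normalized count is a read count that the authors scaled between libraries. Expression had been measured by RNA-seq in 14 libraries of lung cells sorted for SiglecF and CD11c, surface proteins that together mark alveolar macrophages, and split into cells with much or little MHC class II (MHCII) on their surface. All mice were males of strain 129S1, aged 10 to 12 weeks, given either bleomycin (dose labelled 3 U/k) or water through the trachea. Bleomycin is a DNA-damaging drug that injures the lung and leads to fibrosis. The groups were control MHCII-low cells from mice given water (2 libraries), MHCII-low cells 2 weeks after bleomycin (3 libraries), MHCII-low cells 4 weeks after it (3 libraries), and MHCII-high cells at 2 weeks (3 libraries) and at 4 weeks (3 libraries). MHCII-high cells of controls were not analysed here, so bleomycin was compared with water in MHCII-low cells only. The labels do not say whether the libraries of a group came from separate mice, so p-values measure the spread between these libraries, which may be partly technical.

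NRF2, encoded by Nfe2l2, is a transcription factor that KEAP1 holds in the cytoplasm and passes to the proteasome. Oxidants and electrophiles modify KEAP1, NRF2 then accumulates in the nucleus, pairs with a small MAF protein and binds the antioxidant response element of genes for glutathione synthesis, thioredoxin recycling, quinone reduction and heme breakdown. BACH1 competes for the same element and represses some of these genes. Because NRF2 is controlled largely through protein stability, the level of its own mRNA is not a measure of its activity. Alveolar macrophages live in an oxygen-rich space and meet inhaled oxidants.

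Among the 10 genes, Slc7a11 was the member that changed. Its mRNA was highest in MHCII-high cells 2 weeks after bleomycin and lowest in control and MHCII-low 4-week cells, a 6.49-fold span between the highest and the lowest group mean. The span of the other 8 well-read members was 1.09-fold (Gclm) to 1.72-fold (Srxn1), and none of them passed an adjusted p of 0.05 in limma in any of 8 comparisons. Nqo1 was almost unread and reached 10 normalized counts in 5 libraries. Genes outside the 10 that handle glutathione, peroxide and NADPH were lower in MHCII-high than in MHCII-low cells where they passed the test in the fit reported here.

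Levels were compared between genes per kilobase of exon, as the mean of the 14 libraries. Prdx1 stood at 2188 normalized counts per kilobase, Nfe2l2 at 2037 and Hmox1 at 1929.5, above 97.0%, 96.7% and 96.4% of the tested genes. Txnrd1 (615), Gclc (505), Gsr (310.0), Srxn1 (281) and Gclm (245) followed on the same scale. These levels use the exon lengths of the deposited table. GENCODE vM21 gives Txnrd1 7086 exon bases against 3417 there, and Hmox1 1751 against 2161, so the places of both in this order depend on the gene model. Slc7a11 was lower, at 128, which 60.7% of the tested genes did not reach, and Nqo1 stood at 5.45, above 13.6%.

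**Figure D1:**
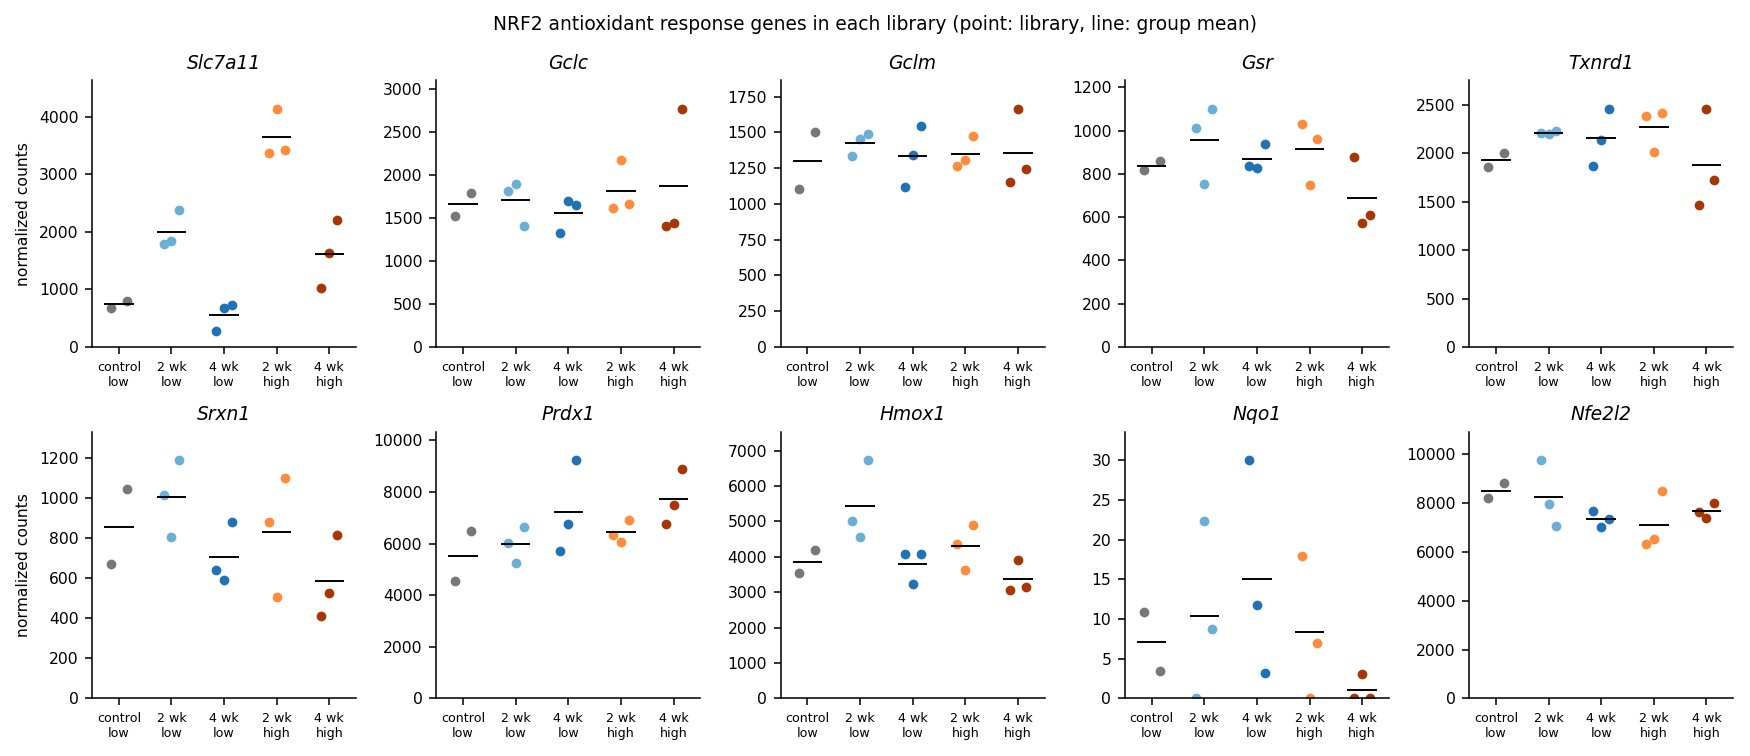
Normalized counts of the 10 genes, 1 panel a gene with its own axis from 0; each point is a library, each line a group mean, and groups run along the x axis. The 3 MHCII-high libraries at 2 weeks are the highest for Slc7a11 (3375.8 to 4136.9), while groups overlap or lie close for the others, and Nqo1 does not exceed 30.0.

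Depth and identity of the libraries bear on every value below. Reads recovered from the normalized counts ranged from 15106415 to 88059675 per library, and the mitochondrial ribosomal RNAs took 3.12% to 28.99% of them. The sort markers were present in all 14 libraries, with Siglecf at 3056.4 to 9550.6 normalized counts and Itgax, which encodes CD11c, at 25185.0 to 44133.2. The class II gene H2-Aa followed the sort, with 16282.6 to 38503.3 in MHCII-high and 127.8 to 1810.4 in MHCII-low libraries. Ccr2 and Cx3cr1, receptors of monocytes and monocyte-derived macrophages, also separated the sorts: Ccr2 was at 2851.7 to 8004.2 in MHCII-high and 549.7 to 963.0 in MHCII-low libraries. In bulk libraries of this kind, fewer cells of a type and less RNA per cell cannot be told apart.

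Nfe2l2 (ENSMUSG00000015839, chr2:75675513-75704641, minus strand; all coordinates on mm10) encodes NRF2 itself. It was at 8207.2 and 8807.9 normalized counts in the controls and at 9755.2, 7957.1 and 7061.6 in MHCII-low 2-week libraries. It was at 7696.6, 7022.7 and 7330.9 in MHCII-low 4-week, 6319.9, 6532.2 and 8480.3 in MHCII-high 2-week, and 7648.5, 7399.2 and 8011.1 in MHCII-high 4-week libraries. The groups compared overlapped except that all MHCII-low 4-week libraries lay below both controls, a log2 fold change of -0.21 ± 0.17 (standard error, as for every log2 fold change here) that did not pass in limma (adjusted p = 0.94). For scale, 27.4% of all tested genes had no overlap in that comparison. High against low, averaged over both times, gave -0.08 ± 0.11 with a 95% interval of -0.30 to 0.15.

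Keap1, Bach1 and Mafg, regulators and partners of NRF2, passed no test. Keap1, the adaptor that marks NRF2 for degradation, ran from 129.0 to 376.1 normalized counts with overlapping groups at each time between the MHCII sorts, and its log2 fold changes over the 8 comparisons were -0.70 to 0.67. Its controls, at 183.4 and 213.1, lay below the MHCII-low libraries at 2 weeks (259.6 to 359.5) and at 4 weeks (274.0 to 358.8). Bach1, the competing repressor, was at 3069.9 and 3159.5 in the controls and at 3358.4 or more in each of the 12 libraries after bleomycin. In MHCII-low cells 35.3% of all tested genes (2 weeks) and 27.4% (4 weeks) had no overlap with the controls, as was the case for Keap1 and Bach1. The Bach1 difference from control in MHCII-low cells was 0.39 ± 0.20 at 2 weeks and 0.51 ± 0.20 at 4 weeks, with limma adjusted p of 0.43 and 0.70. Mafg, a small MAF partner, was even across most libraries but spread from 760.7 to 2154.1 among the 3 libraries of MHCII-high 4-week cells.

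Slc7a11 (ENSMUSG00000027737, chr3:49892526-50443614, minus strand) encodes xCT, the light chain of the exchanger that imports cystine, the source of cysteine for glutathione, in return for glutamate. Its values were 685.2 and 793.8 normalized counts in the controls. In MHCII-low cells they were 1781.0, 1837.6 and 2383.6 at 2 weeks and 283.9, 677.5 and 723.9 at 4 weeks. In MHCII-high cells they were 3375.8, 4136.9 and 3425.7 at 2 weeks and 1021.9, 1634.8 and 2198.1 at 4 weeks. All 3 MHCII-high libraries lay above all 3 MHCII-low libraries at each time, and all 3 libraries at 2 weeks lay above all 3 at 4 weeks within each sort. Among all tested genes, 21.1% (2 weeks) and 16.4% (4 weeks) likewise had no overlap between the sorts, and 14% (MHCII-low) and 15% (MHCII-high) had none between the times. Between 331 and 6561 reads stood behind these values. A stretch of the longest Slc7a11 transcript resembles tubulin genes: it is 92.5% identical to Tuba1b over 585 bases, 93.4% to Tuba1a over 483 and 93.6% to Tuba1c over 482. Their highest values in any library were 1394.4, 805.5 and 1505.9 normalized counts, and a share of the reads may be exchanged between them and Slc7a11.

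The order of the group means was MHCII-high 2-week (3646 ± 426, SD, n = 3), MHCII-low 2-week (2001 ± 333, SD, n = 3), MHCII-high 4-week (1618 ± 588, SD, n = 3), control (739.5 ± 76.8, SD, n = 2) and MHCII-low 4-week (562 ± 242, SD, n = 3). The libraries of MHCII-low 2-week and MHCII-high 4-week cells overlapped, as did those of control and MHCII-low 4-week cells. The MHCII-high 2-week mean was 4.93 times the control mean, a ratio that spans a change of both sort and treatment and was not tested.

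Which members differ between MHCII-high and MHCII-low cells after bleomycin was asked at each time and over both. At 4 weeks Slc7a11 was higher in MHCII-high cells by 1.57 ± 0.30 on the log2 scale (2.97-fold, 95% interval 0.95 to 2.20, limma adjusted p = 0.0039). It was 1 of 10 members called there, against 2.50% of all tested genes. At 2 weeks the difference was 0.87 ± 0.30 (1.83-fold, interval 0.25 to 1.5) and did not pass (limma adjusted p = 0.13). There 0 of 10 members were called, against 2.87% of genes. An unadjusted limma p under 0.05 was found for 1 of 10 members and for 2675 of 17390 genes. A fit of the 2 groups alone, with 3 libraries each, gave the opposite call at each time: limma adjusted p was 0.044 at 2 weeks and 0.25 at 4 weeks. Over both times Slc7a11 was higher by 1.22 ± 0.21 (2.33-fold, interval 0.78 to 1.66, limma adjusted p = 0.00068). Again 1 of 10 members was called, against 7.21% of genes.

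The size of the high-minus-low difference was not shown to change with time. The difference at 4 weeks minus that at 2 weeks was 0.70 ± 0.42 for Slc7a11, with an interval of -0.18 to 1.58 and a limma adjusted p of 0.91. No gene of the table passed this test in limma (0%, 0 of 10 members). An unadjusted limma p under 0.05 was found for 987 of 17390 genes and for 0 of 10 members. On the recovered reads edgeR called 0 genes and DESeq2 60, with no member among them.

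Time after bleomycin was compared within each sort. In MHCII-low cells Slc7a11 was lower at 4 than at 2 weeks by a log2 fold change of -1.93 ± 0.30 (3.82-fold lower, interval -2.56 to -1.31, limma adjusted p = 0.0011). Of 17390 tested genes, 383 had a more negative change. In a fit of these 2 groups alone it did not pass (limma adjusted p = 0.16). It was the 1 member called, against 0.857% of genes. In MHCII-high cells the change was -1.23 ± 0.30 (2.35-fold lower, interval -1.86 to -0.61, limma adjusted p = 0.048), again 1 of 10 members, against 1.07% of genes. There 2503 tested genes had a more negative change. The Slc7a11 call in MHCII-high cells sat at the threshold: 6 of 12 other settings kept it. With a library left out it held only without MHCII-high 4-week replicate 3 (adjusted p = 0.018), and without any of the other 5 libraries adjusted p was up to 0.16. The comparisons between sorts and between times use the same libraries and are not independent of each other.

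Against the water controls, Slc7a11 in MHCII-low cells was higher at 2 weeks by 1.43 ± 0.34 (2.69-fold, interval 0.73 to 2.12, limma adjusted p = 0.026). It was the 1 member called of 10, against 1.91% of genes. Leaving out any 1 of the 5 libraries ended this call, with adjusted p between 0.052 and 0.28 and a log2 fold change between 1.29 and 1.53. At 4 weeks the difference was -0.51 ± 0.34 (interval -1.21 to 0.19, limma adjusted p = 0.90), and 0 of 10 members were called, against 0.0460% of genes.

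**Figure D2:**
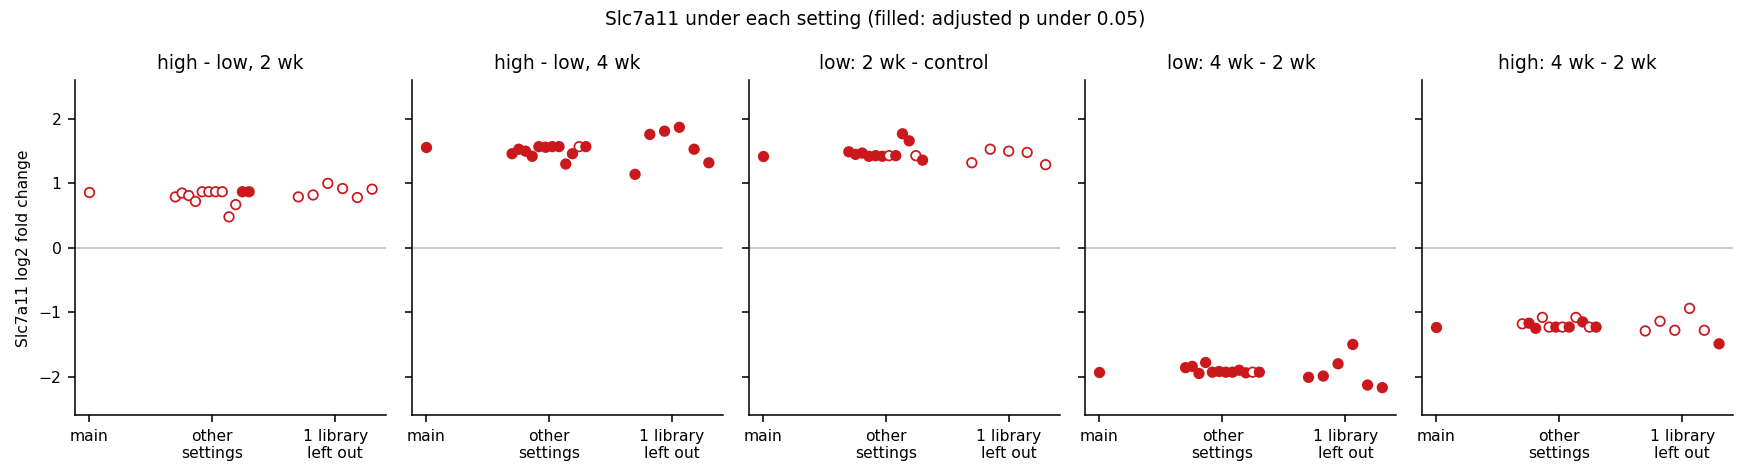
Slc7a11 log2 fold change (y axis) in 5 comparisons, 1 panel each, in the fit reported here, in the other settings and with 1 library left out; filled points have an adjusted p under 0.05. Every point of a panel lies on the same side of 0, and the open points in the panel of MHCII-low 2-week cells against control show that no fit with a library left out passed.

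Several cell type measures also differed between the groups, not all in the order of Slc7a11. Of 13 markers of monocyte-derived or interstitial macrophages, 8 were higher in MHCII-high than in MHCII-low cells at 2 weeks, 8 at 4 weeks, and 8 were higher in MHCII-low 2-week cells than in controls. In these comparisons 2.87%, 2.50% and 1.91% of all tested genes were called in either direction. The summed level of that list was 122004 to 135402 normalized counts in controls, 139768 to 183558 in MHCII-low 2-week, 124133 to 147214 in MHCII-low 4-week, 154374 to 174580 in MHCII-high 2-week and 137861 to 150579 in MHCII-high 4-week libraries; none of its genes was at 0 throughout a group. Of 14 resident alveolar macrophage markers, 9 were lower in MHCII-high cells over both times and 0 higher, where 2.21% of all tested genes were called lower. The summed level of 12 alveolar epithelial genes was 5793 to 9880.5 in MHCII-high 2-week and 4160.3 to 10471 in MHCII-high 4-week libraries, against 1454 to 4092 in all MHCII-low libraries. In MHCII-high libraries 9 dendritic cell genes summed to 979 to 2181, against 102 to 321 in MHCII-low libraries. Cd209a was at 0 in all MHCII-low libraries after bleomycin. Of the 9 genes, 3 were called higher in MHCII-high cells at 2 weeks, without Cd209a, and 4 at 4 weeks, with it. Within MHCII-high cells Cd209a was higher at 4 than at 2 weeks (5.22 ± 1.2, limma adjusted p = 0.036), where Slc7a11 was lower. A list of 11 fibroblast and endothelial genes summed to 2049 to 2643 in controls, 3487 to 5671 in MHCII-low 2-week and 1899.9 to 2992 in MHCII-low 4-week libraries. It summed to 3857 to 7325 in MHCII-high 2-week and 3482 to 4534 in MHCII-high 4-week libraries. Neutrophil genes (9) summed to 8385 to 10509 in MHCII-low 2-week and 5252 to 6799.6 in MHCII-low 4-week libraries. Their sums were 4217 to 7806 in controls, and 7025 to 9710.1 (2 weeks) and 4618 to 7569.6 (4 weeks) in MHCII-high libraries. Of 6 tested, Cxcr2 was the 1 called. It changed by 2.36 ± 0.41 in MHCII-low 2-week cells against control. At 4 against 2 weeks it changed by -2.37 ± 0.36 (MHCII-low) and -1.55 ± 0.36 (MHCII-high). Of all tested genes, 1.91%, 0.857% and 1.07% were called in these comparisons. Airway epithelial genes (8) summed to 28333 to 39070.5 in MHCII-low 4-week libraries, against 4163 to 11592 at 2 weeks and 13344 to 26638 in controls. In MHCII-high libraries the airway sums were 1306 to 10145 at 2 weeks and 5873 to 10768 at 4 weeks. The part of these cell types in the Slc7a11 differences was not tested.

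The mitochondrial rRNA share also differed. It was 22.51% to 26.25% in MHCII-high 2-week libraries, 8.12% to 28.99% in MHCII-high 4-week, 3.42% to 18.32% in MHCII-low 2-week, 3.12% to 23.15% in MHCII-low 4-week libraries, and 21.67% and 24.08% in controls. In the 3 groups with a wide spread, the library with the smallest share also had the lowest Slc7a11 value: 1781.0, 283.9 and 1021.9 normalized counts. Between the remaining libraries of each group, the larger share went with the lower value. These were 1837.6 against 2383.6 in MHCII-low 2-week, 677.5 against 723.9 in MHCII-low 4-week and 1634.8 against 2198.1 in MHCII-high 4-week libraries. The controls, with shares of 21.67% and 24.08%, were at 685.2 and 793.8. With the mitochondrial rRNA share as a covariate the Slc7a11 difference between sorts over both times was 0.89, and no longer passed (limma adjusted p = 0.059). The 2-week difference was 0.48 (adjusted p = 0.64) in place of 0.87, and the 4-week difference was 1.30 (adjusted p = 0.029) in place of 1.57. For MHCII-low 2-week cells against control the covariate gave 1.77 (limma adjusted p = 0.011) in place of 1.43. At 4 against 2 weeks it gave -1.90 (limma adjusted p = 0.0007) in place of -1.93 in MHCII-low cells. In MHCII-high cells it gave -1.08 (limma adjusted p = 0.08) in place of -1.23.

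The promoter windows of a few members are shown because the family is defined by a sequence element. RefSeq windows on GRCm38.p6, 250 bases before to 50 after an annotated start, were held for 7 of the 10 genes. They were searched on both strands for the antioxidant response element core TGACNNNGC, for the AP-1 site TGACTCA, with which the core can overlap, and for the amino acid response element TGATGCAA, bound by ATF4, a factor of amino acid stress and a known regulator of Slc7a11. The last motif was added after the Slc7a11 values were seen. The core is in 12.39% of all 32851 windows, the AP-1 site in 5.2% and the ATF4 element in 0.89%. The windows below are those of the member that changed, of the regulatory subunit of glutathione synthesis, and of a member with both a core and AP-1 sites. Capitals mark the core and the ATF4 element.
Slc7a11: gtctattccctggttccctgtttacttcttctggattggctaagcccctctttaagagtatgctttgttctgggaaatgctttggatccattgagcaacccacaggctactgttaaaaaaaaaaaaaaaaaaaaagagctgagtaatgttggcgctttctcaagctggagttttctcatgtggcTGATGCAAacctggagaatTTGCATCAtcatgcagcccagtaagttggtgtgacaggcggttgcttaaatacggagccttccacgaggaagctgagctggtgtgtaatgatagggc
Gclm: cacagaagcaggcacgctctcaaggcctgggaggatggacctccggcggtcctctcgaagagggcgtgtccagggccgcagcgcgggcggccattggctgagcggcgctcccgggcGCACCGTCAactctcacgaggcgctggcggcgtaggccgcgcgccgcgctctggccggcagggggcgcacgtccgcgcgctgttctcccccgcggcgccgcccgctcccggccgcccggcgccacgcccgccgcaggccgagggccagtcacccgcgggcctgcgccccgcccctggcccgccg
Prdx1: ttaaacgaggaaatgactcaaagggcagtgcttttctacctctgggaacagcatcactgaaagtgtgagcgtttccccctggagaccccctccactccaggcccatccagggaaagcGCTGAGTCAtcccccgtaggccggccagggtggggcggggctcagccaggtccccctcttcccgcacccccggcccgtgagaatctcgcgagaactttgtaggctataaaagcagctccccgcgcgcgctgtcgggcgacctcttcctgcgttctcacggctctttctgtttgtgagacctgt

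The Slc7a11 window (chr3:50443564-50443863, minus strand) held no core match and 2 matches to the ATF4 element, on opposite strands, beginning 66 and 47 bases before the start site. The Gclm window (chr3:122245307-122245606, plus strand) held 1 core match on the reverse strand at 134 bases before the start, reading TGACGGTGC. The Prdx1 window (chr4:116685349-116685648, plus strand) held 1 core match at 133 bases before the start, TGACTCAGC, which overlapped 1 of its 2 AP-1 matches. The Nfe2l2 and Srxn1 windows held 1 core match each and the Nqo1 window none. Txnrd1 has 3 windows, of which 1 held a core match and the other 2 did not. No Hmox1, Gclc or Gsr window was in the table. A match describes these letters only. Sites more than 250 bases before a start were not searched, so a window without a core match does not show that the gene lacks one. Binding of NRF2 or ATF4 was not tested.

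xCT works as a pair with the heavy chain 4F2hc, encoded by Slc3a2, which also serves other amino acid transporters. Slc3a2 was chosen for description after its values were seen. Per kilobase of exon it was at 664 to 1139.7 normalized counts over the 14 libraries, with log2 fold changes of -0.32 to 0.28 over the 8 comparisons, none of which passed. Slc7a11 per kilobase was at 242 to 297 in MHCII-high 2-week libraries, 128 to 171 in MHCII-low 2-week, 73.4 to 158 in MHCII-high 4-week, 49.2 and 57.0 in controls and 20.4 to 52.0 in MHCII-low 4-week libraries. The ratio of Slc3a2 to Slc7a11 was therefore 3.36 to 3.81 in MHCII-high 2-week libraries and 15.2 to 55.9 in MHCII-low 4-week libraries. Per kilobase of exon, the heavy chain mRNA was the more abundant of the pair in every library. This order and the ratios depend on the 13922 exon bases taken for Slc7a11. Without scaling by length, Slc7a11 was the higher of the pair in the MHCII-high 2-week libraries only. There it was at 3375.8, 4136.9 and 3425.7 normalized counts, against 2733.7, 2950.7 and 2489.1 for Slc3a2.

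**Figure D3:**
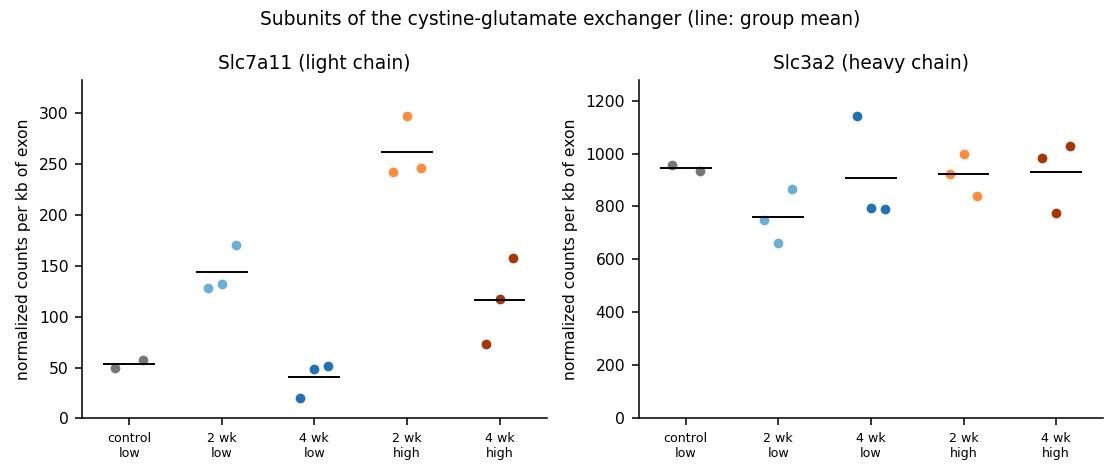
Normalized counts per kilobase of exon of Slc7a11 (left) and Slc3a2 (right) in each library, with lines at the group means and both axes from 0. Slc7a11 runs from 20.4 to 297, while Slc3a2 stays between 664 and 1139.7.

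The enzymes of glutathione synthesis and recycling gave no call. Glutamate-cysteine ligase, the rate-limiting enzyme of glutathione synthesis, has a catalytic subunit, Gclc (ENSMUSG00000032350, chr9:77754535-77794485, plus strand), and a modifier subunit, Gclm (ENSMUSG00000028124, chr3:122245557-122270732, plus strand). Gclc was at 1528.2 and 1789.8 normalized counts in the controls, 1812.3, 1896.5 and 1412.3 in MHCII-low 2-week and 1328.4, 1697.1 and 1655.7 in MHCII-low 4-week libraries. It was at 1616.6, 2171.7 and 1659.4 in MHCII-high 2-week and 1409.0, 1446.6 and 2770.2 in MHCII-high 4-week libraries. The groups overlapped, and the single high value belonged to replicate 3 of the MHCII-high 4-week cells. Over both times the high-minus-low difference was 0.14 ± 0.17 with an interval of -0.20 to 0.49 (limma adjusted p = 0.68).

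Gclm was the most even member. It was at 1104.7 and 1499.7 in the controls, 1335.7, 1450.7 and 1488.9 in MHCII-low 2-week, 1115.7, 1345.1 and 1547.0 in MHCII-low 4-week, 1267.8, 1309.1 and 1477.8 in MHCII-high 2-week and 1155.1, 1664.7 and 1245.1 normalized counts in MHCII-high 4-week libraries. All groups overlapped. Its high-minus-low difference over both times was -0.03 ± 0.14, with an interval of -0.33 to 0.27. Gclm shares 296 exon bases with the opposite-strand gene Gm17494, which did not exceed 23.5 normalized counts; no strand marking is described, so reads of the pair cannot be separated there.

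Gsr (ENSMUSG00000031584, chr8:33652523-33698163, plus strand) encodes glutathione reductase, which returns oxidised glutathione to its reduced form with NADPH. It was at 818.4 and 859.2 normalized counts in the controls, 1011.3, 754.8 and 1100.7 in MHCII-low 2-week and 836.1, 827.5 and 940.4 in MHCII-low 4-week libraries. It was at 1031.1, 747.9 and 963.5 in MHCII-high 2-week and 876.2, 572.7 and 612.2 in MHCII-high 4-week libraries. Those last 2 libraries were the lowest of all 14, and replicate 1 of the same group lay among the other groups. The change from 2 to 4 weeks in MHCII-high cells was -0.42 ± 0.23 (interval -0.91 to 0.06, limma adjusted p = 0.43).

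The thioredoxin branch gave no call either. Txnrd1 (ENSMUSG00000020250, chr10:82859206-82897724, plus strand) encodes cytosolic thioredoxin reductase. Its values were 1855.0 and 2005.0 normalized counts in the controls, 2210.6, 2197.5 and 2232.2 in MHCII-low 2-week and 1869.5, 2132.4 and 2457.5 in MHCII-low 4-week libraries. In MHCII-high libraries they were 2388.4, 2015.2 and 2411.8 at 2 weeks and 1465.2, 2453.8 and 1725.9 at 4 weeks. The MHCII-low 2-week libraries lay close together and above both controls, with a difference of 0.20 ± 0.21 that did not pass (limma adjusted p = 0.78); 35.3% of all tested genes had no overlap in that comparison.

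Srxn1 (ENSMUSG00000032802, chr2:152105516-152111376, plus strand) encodes sulfiredoxin, which repairs over-oxidised peroxiredoxins. It was at 672.7 and 1045.1 normalized counts in the controls, 1015.8, 808.9 and 1189.9 in MHCII-low 2-week, 640.6, 594.1 and 883.8 in MHCII-low 4-week, 881.9, 507.9 and 1101.6 in MHCII-high 2-week and 412.1, 527.2 and 815.5 in MHCII-high 4-week libraries. Every group overlapped its neighbours. The change from 2 to 4 weeks was -0.51 ± 0.31 in MHCII-low and -0.49 ± 0.31 in MHCII-high cells, with intervals of -1.15 to 0.13 and -1.13 to 0.15 and limma adjusted p of 0.82 and 0.50. These intervals leave room for a change of either direction.

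Prdx1 (ENSMUSG00000028691, chr4:116685544-116700822, plus strand) encodes an abundant peroxidase that thioredoxin recharges. It was at 4570.8 and 6488.6 normalized counts in the controls, 6016.4, 5250.1 and 6648.6 in MHCII-low 2-week and 5706.2, 6772.7 and 9233.0 in MHCII-low 4-week libraries. It was at 6352.9, 6072.6 and 6924.3 in MHCII-high 2-week and 6774.4, 7507.4 and 8888.6 in MHCII-high 4-week libraries. The groups compared overlapped, and the widest difference, MHCII-low 4-week against control, was 0.38 ± 0.21 (interval -0.05 to 0.81, limma adjusted p = 0.85). A processed pseudogene, Gm21399, is 98.3% identical over 597 bases and did not exceed 29.9 normalized counts, so reads could be split between the pair.

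Hmox1 (ENSMUSG00000005413, chr8:75093621-75100589, plus strand) encodes heme oxygenase 1, which breaks down heme and is repressed by BACH1. Its values were 3539.7 and 4181.4 normalized counts in the controls and 5020.8, 4547.8 and 6725.2 in MHCII-low 2-week libraries. They were 4068.3, 3240.2 and 4072.7 in MHCII-low 4-week, 4357.0, 3625.7 and 4891.3 in MHCII-high 2-week and 3055.2, 3903.6 and 3147.5 in MHCII-high 4-week libraries. All 3 libraries of MHCII-low 2-week cells lay above the controls and above those of MHCII-low 4-week cells, separations that 35.3% and 14% of all tested genes showed in these comparisons. After Slc7a11 it came nearest to a call in MHCII-low cells: 0.48 ± 0.20 at 2 weeks against control (interval 0.06 to 0.90) and -0.51 ± 0.18 at 4 against 2 weeks (interval -0.88 to -0.13), with limma adjusted p of 0.32 and 0.35. The difference between sorts over both times was -0.25 ± 0.13 (limma adjusted p = 0.27).

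Nqo1 (ENSMUSG00000003849, chr8:107388225-107403206, minus strand) encodes a quinone reductase and is often used as a readout of NRF2. Between 0 and 35 reads were recovered per library. The values were 10.9 and 3.4 normalized counts in the controls, 0, 22.3 and 8.8 in MHCII-low 2-week, 30.0, 11.8 and 3.2 in MHCII-low 4-week, 18.0, 0 and 7.0 in MHCII-high 2-week and 0, 3.1 and 0 in MHCII-high 4-week libraries. The 4 libraries at 0 allow up to 2.46 to 6.71 normalized counts each (3 reads, counting error only). No fold or order of groups is given at this depth; limma's adjusted p for 4-week high against low was 0.33.

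Across comparisons, the 8 members other than Slc7a11 and Nqo1 stayed within log2 fold changes of -0.32 to 0.14 between sorts over both times. They ranged from -0.06 to 0.48 in MHCII-low 2-week cells against control and from -0.27 to 0.38 at 4 weeks. The median over all 10 members was -0.08 between sorts, against 0.02 for all tested genes, and 0.16 against -0.09 for MHCII-low 2-week cells and control. Libraries of 1 group also differed across members. Of the 9 members other than Nqo1, control replicate 1 was the lower of the pair for all 9. Replicate 3 was the highest of its group for 7 of 9 in MHCII-low 2-week, 7 in MHCII-low 4-week, 6 in MHCII-high 2-week and 5 in MHCII-high 4-week libraries.

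**Figure D4:**
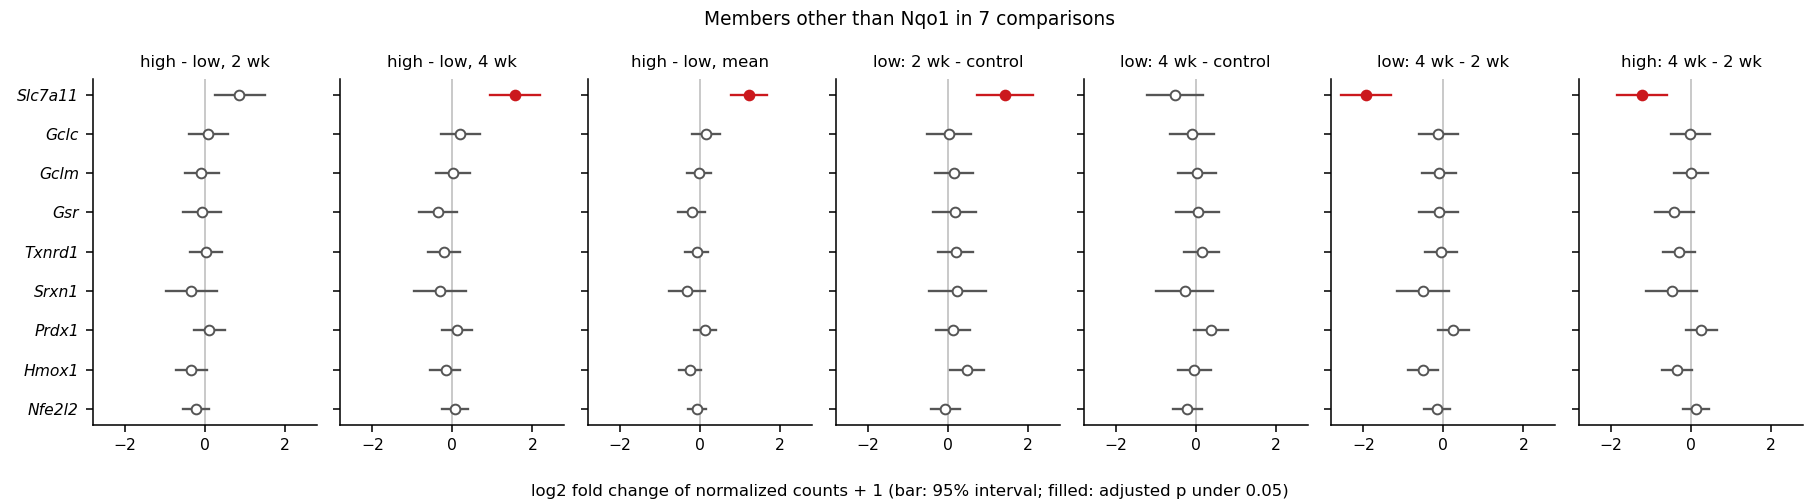
Log2 fold changes with 95% intervals (x axis) of the 9 members other than Nqo1 in 7 comparisons, 1 panel each; filled points have a limma adjusted p under 0.05. The filled points are all Slc7a11, and the interval of every other member spans 0 except those of Hmox1 in MHCII-low 2-week cells against control and in MHCII-low cells at 4 against 2 weeks.

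The rest of the antioxidant system was read from 8 lists with 74 other genes, of which 73 were tested. Between sorts over both times, 9 of 73 (12.3%) were lower in MHCII-high cells and 0 higher, where 2.21% of all tested genes were called lower. Of all genes called there 69.4% were higher in MHCII-high cells, and 46.6% with scaling by library totals. The glutathione list had 3 called of 16: Gstm1, a glutathione transferase (-0.66 ± 0.14, limma adjusted p = 0.0037), Mgst1, a microsomal one (-0.51 ± 0.12, 0.0078), and Gpx1, glutathione peroxidase 1 (-0.63 ± 0.15, 0.014). In the NADPH list the called genes were 3 of 6 of the pentose phosphate pathway: G6pdx (-0.44 ± 0.12, 0.028), Taldo1 (-0.52 ± 0.15, 0.036) and Pgd (-0.42 ± 0.12, 0.042). The log2 fold changes of all 6 lay between -0.52 and -0.26.

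The other calls were Cat, catalase (-0.59 ± 0.15, limma adjusted p = 0.016), Sqstm1, the autophagy receptor p62 that binds KEAP1 (-0.46 ± 0.13, 0.035), and Prdx5, a peroxiredoxin (-0.55 ± 0.17, 0.048). The lists of heme and iron (8 genes), quinone and carbonyl detoxification (12) and the phagocyte NADPH oxidase (6) had 0 called. Gstm1 illustrates the size: it was at 10347.2 to 17639.8 normalized counts in MHCII-low 2-week and 11234.5 to 14201.3 in MHCII-low 4-week libraries, against 5568.0 to 8984.7 in MHCII-high 2-week and 8875.6 to 9960.9 in MHCII-high 4-week libraries. The controls, at 9930.1 and 8677.9, lay nearer to the MHCII-high libraries. All 9 genes kept their sign under every setting, but with the mitochondrial rRNA share as a covariate 0 of the 9 passed, and with 1 library left out 3 to 8 did (3 without MHCII-low 4-week replicate 3 or MHCII-high 2-week replicate 2). With no filter 3 of the 9 passed. Some settings also called genes of the 73 higher. DESeq2 called 3 higher and 13 lower, edgeR 1 and 11, and the replicate block 1 and 9. With the mitochondrial rRNA covariate 1 was higher and 0 lower. Without MHCII-high 4-week replicate 2 or 3, 2 and 1 were higher. Resident alveolar macrophage markers were lower in the same comparison (9 of 14), and their part was not tested.

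At 2 weeks alone Gstm1 was the 1 gene of the 73 called between sorts (-0.87 ± 0.19, limma adjusted p = 0.014), a share of 1.37% against 2.87% of all tested genes. It was lost without MHCII-low replicate 1 or MHCII-high replicate 2, with adjusted p up to 0.13, and also with no filter, with the mitochondrial rRNA covariate and in the fit of the 2 groups alone. At 4 weeks 0 were called. Against control, 1 gene rose in MHCII-low 2-week cells: Fth1, the heavy chain of the iron store ferritin, was at 57031.9, 33279.0 and 57167.3 normalized counts against 23917.2 and 18869.2 (1.17 ± 0.25, limma adjusted p = 0.012). This 1 of 73 (1.37%) stood against 1.91% of all tested genes. That call was lost without control replicate 3 or without MHCII-low 2-week replicate 1 or 3, with adjusted p up to 0.26, and also with library totals, with the mitochondrial rRNA covariate and in the fit of the 2 groups alone. No gene of the 8 lists passed in limma in the remaining 4 comparisons.

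**Figure D5:**
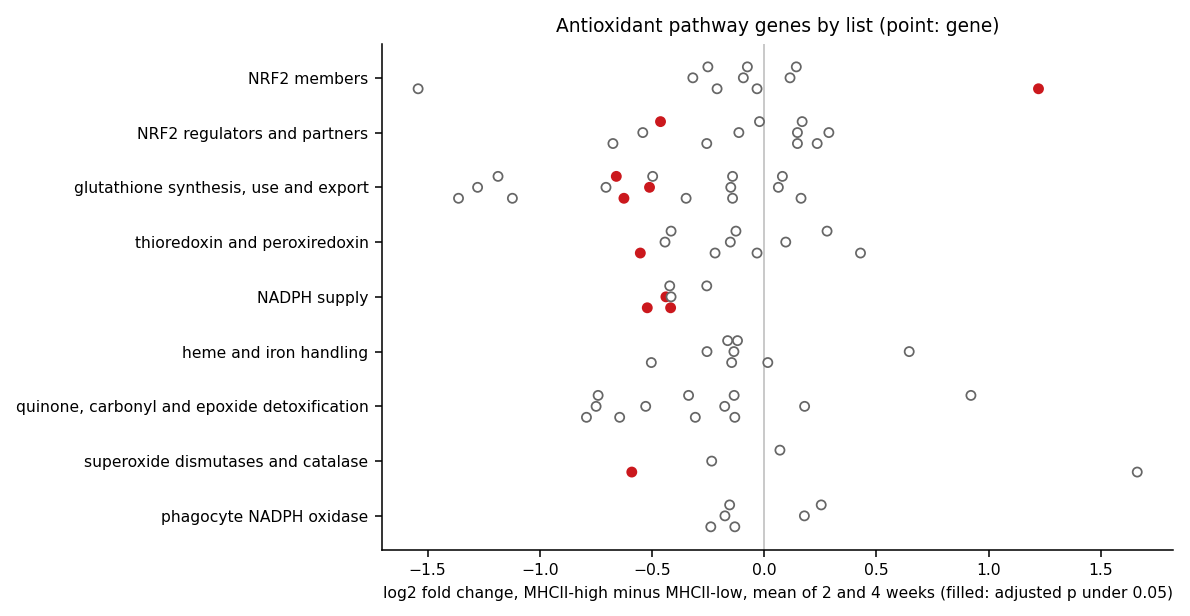
Log2 fold change between MHCII-high and MHCII-low cells, mean of 2 and 4 weeks (x axis), for the 10 members and the 8 other lists, 1 row a list and 1 point a gene; filled points have a limma adjusted p under 0.05. Slc7a11 is the filled point above 0, and the 9 filled points of the other lists lie between -0.66 and -0.42.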

How the data were processed

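Per the file headers, the 14 deposited columns hold normalized counts, which is a signal the authors derived from counted reads. Per the submitters' processing notes, STAR, DESeq2 and the build mm10 were used, with no role stated. Per the labels' protocols, mRNA was bead-purified and amplified as cDNA before transposase libraries, with no molecular identifiers. Each column holds whole multiples of 1 step (0.3895 to 2.2374 normalized counts per read), so reads were recovered; 100% of values were whole within rounding. The deposited GC percent and exon length were used as the authors give them. Coordinates follow the file; 9 of 10 spans match GENCODE vM21.

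Genes with at least 10 in 2 libraries were fitted with limma 3.58.1 (R 4.3.3; mean-variance trend, log2(value + 1), 1 coefficient per group, all 14 libraries), which understates changes of low genes. P-values were adjusted by Benjamini-Hochberg over 17390 genes, threshold 0.05. Other settings included edgeR 4.0.16 and DESeq2 1.42.0 on recovered reads. Only the limma fit was run on simulated data, with changes placed in the MHCII-high 2-week group. Named were all 10 members, Keap1, Bach1, Mafg, and up to 3 genes per list with the smallest p among those called; Slc3a2 and the markers of the sort were added. Members and lists were chosen with earlier results of these data known.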

Additional observations from a re-analysis of the deposited data

How the results depend on the processing

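Over 12 other settings and the fits with 1 library left out, Slc7a11 kept its direction in all 154 fits, and no other member was called in any of 1378. The number of members called, which was Slc7a11 alone, changed as follows. Between sorts at 2 weeks it was 0, and 1 in the fit of the groups compared and with the replicate number as a block (adjusted p = 0.036). At 4 weeks it was 1, and 0 in the fit of the groups compared. Over both times it was 1, and 0 with the mitochondrial rRNA covariate. For MHCII-low 2-week cells against control it was 1, and 0 with no filter, in the fit of the groups compared and with any of the 5 libraries left out (0 to 0). For MHCII-low cells at 4 against 2 weeks it was 1, and 0 in the fit of the groups compared. For MHCII-high cells at 4 against 2 weeks it was 1, and 0 with edgeR, library totals, a pseudocount of 0.5, no filter, the mitochondrial rRNA covariate and the groups compared alone, and 0 to 1 with a library left out. The cause was not tested; the fits of the groups compared use fewer samples. Same-numbered libraries of the 2 sorts correlated in their deviations at 0.107, 0.068 and 0.025 (2 weeks) and 0.009, 0.034 and 0.015 (4 weeks). Libraries with different numbers correlated at -0.124 to 0.077 (2 weeks) and -0.032 to 0.017 (4 weeks). These values do not settle whether the numbers are pairs. The labels do not say either, so the fit reported here did not take them as pairs. The count of all called genes moved more. Over the other settings it was 207 to 1055 in place of 499 (sorts, 2 weeks), 56 to 911 in place of 434 (4 weeks), 500 to 2122 in place of 1254 (both), 36 to 665 in place of 332 (MHCII-low 2-week cells against control), 0 to 74 in place of 8 (4-week), 15 to 320 in place of 149 (MHCII-low, 4 against 2 weeks), 0 to 638 in place of 186 (MHCII-high) and 0 to 60 in place of 0 (interaction). With a library left out these were 205 to 457, 266 to 483, 856 to 1376, 127 to 307, 1 to 8, 95 to 138, 64 to 298 and 0 to 2. Scaling by library totals moved the median log2 fold change of all genes between sorts over both times from 0.02 to -0.13, where Slc7a11 stayed higher. Nqo1 is limited by depth.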
